A study of Mus musculus with 17 samples.

Results

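The hippocampal dissections of this series differed in how much choroid plexus RNA they carried, and all 17 arrays were divided on that basis. The groups were chosen by the measured log2 signal of Ttr, read by 1 of its 4 probe sets: an array above 13 was called choroid-rich and an array at 13 or below choroid-poor. Of 17 arrays 5 were choroid-rich and 12 were choroid-poor. Each array held hippocampal RNA of its own adult male mouse, of strain C57BL/6J in the growth protocol and with genotype C57/BL6 in the sample labels. Of the mice, 9 had been left undisturbed in the home cage and 8 had been kept awake there for 5 h by gentle handling. All had been handled daily for 6 days beforehand, and the labels give an age of 2 months where the growth protocol gives 2 to 4 months. The labels number the animals as separate biological replicates. The arrays are called U1 to U9 for undisturbed and S1 to S8 for sleep-deprived mice, after those replicate numbers. The choroid groups are not groups of the study: they come from 1 gene measured on the same RNA, so a p-value below says how tightly another gene follows the split and not that anything done to the mice changed it.

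The choroid plexus is a folded sheet of secretory epithelium that hangs in the brain's ventricles, makes cerebrospinal fluid and rests on a core of fibroblasts and leaky capillaries. Its fold in the lateral ventricle attaches along the fimbria of the hippocampus, so that pieces of it can come away with the tissue. The epithelium pumps ions, bicarbonate and water into the ventricle, passes vitamins and hormones across, and secretes carriers and growth factor modulators, of which transthyretin, the product of Ttr, is the best known. Ependyma, the ciliated layer that lines the ventricle wall, is a separate cell type that expresses genes for motile cilia, though such genes are not private to it.

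On the choroid-rich arrays the log2 signal of Ttr was 13.8 on U4, 14.1 on U9, 14.2 on S3, 14.2 on S5 and 14.3 on S7. On the choroid-poor arrays it ran from 7.12 to 12.1 with a median of 9.63. The values nearest the threshold were 12.1 on S6 and 12.0 on U5 below it and 13.8 on U4 above it, so no array lay close to 13. The highest and lowest arrays differed 142-fold in Ttr, the choroid-poor arrays differed among themselves up to 32.1-fold, and the choroid-rich arrays up to 1.34-fold. The choroid-poor arrays were therefore not free of Ttr signal to the same degree. The narrow range on the choroid-rich arrays lay close to the highest value in the whole table, which was 14.8. These Ttr values chose the groups and are given as a description. Of the undisturbed mice 2 of 9 were choroid-rich and of the sleep-deprived mice 3 of 8 (odds ratio 2.01, 95% confidence interval 0.162 to 32.9, Fisher's exact test, two-sided p = 0.62).

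The median log2 signal of an array was 6.13 to 6.22, and pairs of arrays correlated between 0.993 and 0.998 over probe sets. The tests covered 18192 genes other than Ttr, and the brightest probe set stood for each gene. Markers of the labelled tissue were present on every array: Prox1, a transcription factor of dentate granule cells, ranged from 7.01 to 7.73, and Nrgn, a calmodulin-binding protein of forebrain excitatory neurons, from 11.6 to 12.1. As a measure of RNA quality, the actin control probe sets of the 3′ end exceeded those of the 5′ end by 0.91 on S5 and by at most 0.68 on the other 16 arrays, on the log2 scale. The same measure for Gapdh ran from -0.13 to -0.059 on choroid-rich and from -0.18 to -0.020 on choroid-poor arrays, which overlap. Precision is limited by how many arrays there are. Differences below are choroid-rich minus choroid-poor on the log2 scale, with the sleep group as a covariate, a moderated standard error (SE) and a p adjusted in limma over all genes by the Benjamini-Hochberg method.

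In limma 23 genes were higher on the choroid-rich arrays at an adjusted p under 0.05, which is 0.126% of the genes tested, and 0 were lower. At an unadjusted p under 0.05 there were 930 higher genes (5.11%) and 281 lower ones (1.54%), and 56.5% of all genes had a positive difference, with a median of 0.011. Of the 23 genes 22 were on 3 lists of choroid epithelium genes, which had been compiled with earlier results of these arrays known and are not independent evidence of the direction. For 20 of the 23 every choroid-rich array lay above every choroid-poor one, a separation found in 26 genes (0.143%) in that direction and in 0 in the other. On the brightest probe sets the differences spanned 1.22-fold to 4.07-fold with a median of 1.52-fold. There 5 genes reached 2-fold: Kcnj13, Kcne2, Ecrg4, Folr1 and Sostdc1. In bulk tissue more choroid plexus cells and more of these transcripts per cell cannot be told apart. U4 was the lowest of the choroid-rich arrays in 15 of the 23 genes, and S5, the array with the high actin ratio, was the highest in 12. Without U4 37 genes were called, among them all 23, and without S5 20 genes were called, all of them among the 23. Steap1, Lbp and Col8a1 were the genes that dropped out.

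**Figure D1:**
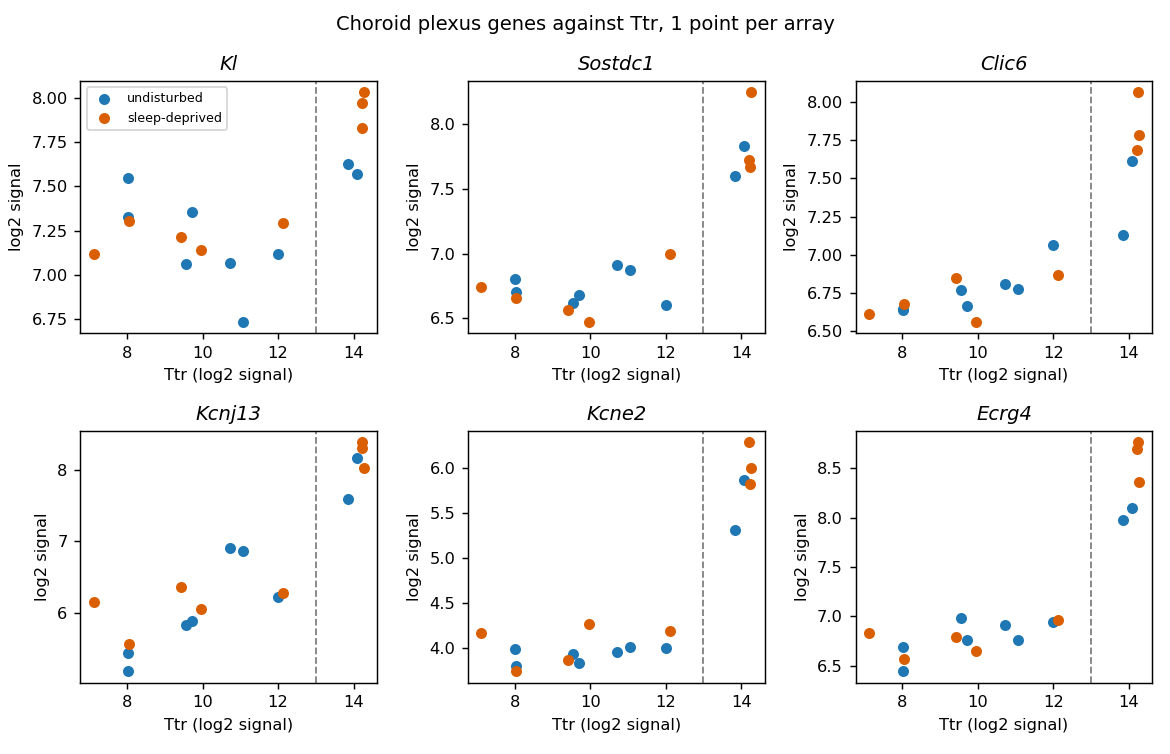
Log2 signal of Kl, Sostdc1, Clic6, Kcnj13, Kcne2 and Ecrg4 (vertical axes) against the log2 signal of Ttr (horizontal axes), 1 point per array, blue for the 9 undisturbed and orange for the 8 sleep-deprived mice, with the dashed line at the split of 13. In each panel the 5 choroid-rich arrays stand above all 12 choroid-poor arrays, and the lowest of the 5 is U4 or U9.

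Transporters and channels held the largest differences. Of the 31 measured genes on this list 7 were higher and 0 lower, 18 were higher and 0 lower at an unadjusted p under 0.05, and the median difference was 0.18 against 0.011 over all genes. The 7 were Kcnj13, Kcne2, Folr1, Clic6, Aqp1, Steap1 and Slc4a5. Kcnj13 and Kcne2 had the largest differences of the 23 on the brightest probe sets. Their promoters are shown as the 250 bases before an annotated start in RefSeq, assembly GRCm38.p6. The start was chosen among those whose window holds the marked letters. The window of Kcnj13 is chr1:87394730-87394979 on the minus strand, and the capitals mark the letters TATAAA, which begin 29 bases before the start. The window of Kcne2 is chr16:92292139-92292388 on the plus strand, and the capitals mark GGCAAC, the reverse complement of GTTGCC, a half-site of the RFX factors, which begins 109 bases before the start.
Kcnj13: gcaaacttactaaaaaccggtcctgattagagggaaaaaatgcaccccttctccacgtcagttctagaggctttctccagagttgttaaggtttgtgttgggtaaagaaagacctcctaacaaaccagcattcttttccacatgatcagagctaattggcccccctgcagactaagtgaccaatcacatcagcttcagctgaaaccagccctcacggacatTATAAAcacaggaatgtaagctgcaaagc
Kcne2: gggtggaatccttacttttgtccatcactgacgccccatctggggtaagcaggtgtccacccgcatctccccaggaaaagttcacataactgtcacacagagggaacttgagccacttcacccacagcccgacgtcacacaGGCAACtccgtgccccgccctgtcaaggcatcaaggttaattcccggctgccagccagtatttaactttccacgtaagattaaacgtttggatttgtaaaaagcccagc

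Kcnj13 encodes an inwardly rectifying potassium channel of the epithelium's ventricular membrane. Its log2 signal was 7.60 on U4, 8.18 on U9, 8.32 on S3, 8.40 on S5 and 8.04 on S7, against 5.17 to 6.91 with a median of 6.10 on the choroid-poor arrays. The groups did not overlap, and the difference was 2.02 (SE 0.22, adjusted p = 1.7e-05), or 4.07-fold. The highest choroid-poor values were 6.91 on U6 and 6.87 on U8. Kcne2, an accessory subunit of voltage-gated potassium channels, had the smallest p of all genes. It measured 5.30, 5.86, 5.82, 6.28 and 5.99 on U4, U9, S3, S5 and S7 and 3.74 to 4.26, median 3.97, on the choroid-poor arrays. The 12 choroid-poor arrays lay close together, far below all 5 others, and the difference was 1.83 (SE 0.097, adjusted p = 1.1e-10).

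Folr1, the folate receptor that carries folate across the epithelium, was the most uneven of these genes among the choroid-rich arrays. Its log2 signal was 6.21 on U4, 7.31 on U9, 8.03 on S3, 7.58 on S5 and 7.49 on S7, and 5.68 to 6.14 with a median of 5.87 on the choroid-poor arrays. U4 exceeded the highest choroid-poor array by little, while the other 4 stood well clear, and the difference was 1.39 (SE 0.15, adjusted p = 1.7e-05). Clic6, of the chloride intracellular channel family, measured 7.13, 7.61, 8.06, 7.69 and 7.78 on U4, U9, S3, S5 and S7 and 6.56 to 7.06, median 6.72, on the choroid-poor arrays, a difference of 0.89 (SE 0.099, adjusted p = 2.4e-05). U4 was again the lowest choroid-rich array, just above U5, the highest of the choroid-poor arrays.

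Aqp1, the water channel of the ventricular membrane, was dimmer, at 4.93, 4.91, 5.30, 5.19 and 5.50 on U4, U9, S3, S5 and S7 and 4.20 to 4.65, median 4.46, on the choroid-poor arrays (difference 0.72, SE 0.083, adjusted p = 4.3e-05). Slc4a5, a sodium bicarbonate cotransporter, was at 4.20, 4.35, 4.18, 4.66 and 4.26 against 3.62 to 3.98, median 3.83 (difference 0.50, SE 0.073, adjusted p = 0.0011). Neither gene's groups overlapped. Steap1, a membrane protein related to metalloreductases, had 6.02 on U4, within the choroid-poor range of 5.53 to 6.25, and 6.41 to 6.94 on the other 4 choroid-rich arrays, all above that range. Its adjusted p of 0.048 (difference 0.60, SE 0.12) was the closest of the 23 to the threshold. Its call was lost in the fits that left out U1, U2, U3, U6, U7, U9 or any sleep-deprived array except S2.

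Other transporters of the same epithelium did not pass the test. Slc13a4, a sulphate transporter that meningeal fibroblasts also express, had a difference of 0.80 (SE 0.22, adjusted p = 0.34): the choroid-poor arrays U6 and U8 measured 8.55 and 8.28, above 4 of the 5 choroid-rich arrays, which ran from 8.04 to 8.87. Trpv4, an osmosensitive cation channel, differed by 0.31 (adjusted p = 0.46). Slc16a8, a lactate transporter, differed by 0.065 and Slc12a2, a sodium, potassium and chloride cotransporter that many brain cells express, by 0.027.

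The list named for secreted and cell-surface proteins also holds other genes of the epithelium, such as Calml4 and Rdh5. It had the most calls, 9 higher and 0 lower of 30 measured. At an unadjusted p under 0.05 it had 24 higher and 0 lower, and its median difference was 0.31. The 9 were Ecrg4, Sostdc1, Sulf1, Calml4, F5, Kl, Rdh5, Col8a1 and Lbp. Ecrg4 encodes a precursor of secreted peptides made in the choroid plexus. Its log2 signal was 7.97 on U4, 8.10 on U9, 8.76 on S3, 8.70 on S5 and 8.36 on S7, against 6.44 to 6.98 with a median of 6.78, and the gap of the groups was wide. The difference was 1.58 (SE 0.10, adjusted p = 4.6e-09), or 2.99-fold. Sostdc1, a secreted antagonist of BMP and Wnt signals, measured 7.60, 7.84, 7.67, 7.73 and 8.25 on U4, U9, S3, S5 and S7 and 6.47 to 7.00, median 6.69, on the choroid-poor arrays, where S6 was the highest. The groups did not overlap (difference 1.09, SE 0.091, adjusted p = 2.9e-07).

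Kl encodes klotho, a co-receptor for fibroblast growth factors whose outer domain is shed into the cerebrospinal fluid. It measured 7.63, 7.57, 7.97, 7.83 and 8.03 on U4, U9, S3, S5 and S7 and 6.73 to 7.55, median 7.17, on the choroid-poor arrays. U9, the lowest choroid-rich array for this gene, stood barely above U3, the highest choroid-poor one, and the difference was 0.59 (SE 0.093, adjusted p = 0.0023). Sulf1, which trims sulphate groups from heparan sulphate outside the cell, had 6.36, 6.55, 6.66, 7.03 and 6.48 against 5.19 to 6.14, median 5.75 (difference 0.93, SE 0.13, adjusted p = 4.5e-04). The choroid-poor arrays spread widely for Sulf1 and still did not reach the lowest choroid-rich array.

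The remaining genes of this list had smaller differences. Calml4, a calmodulin-like protein, differed by 0.73 (SE 0.095), F5, coagulation factor V, by 0.63 (SE 0.083) and Rdh5, a retinol dehydrogenase, by 0.54 (SE 0.097), each with no overlap of the groups. Col8a1, a short-chain collagen, differed by 0.53 (SE 0.092, adjusted p = 0.0093), but U4 with 5.75 lay within the choroid-poor range of 4.95 to 5.86. Lbp, the lipopolysaccharide-binding protein, differed by 0.47 (SE 0.085, adjusted p = 0.014), and U4 with 7.22 lay just under the highest choroid-poor value of 7.23. Among members that were not called, Igf2, a growth factor that choroid plexus and meninges both secrete, differed by 0.48 (SE 0.14, adjusted p = 0.42), and Igfbp2, which binds such growth factors, by 0.45 (SE 0.11, adjusted p = 0.26). For both, U6 and U8 among the choroid-poor arrays reached into the choroid-rich range. Both were called when the mean of Kl, Sostdc1, Clic6 and Kcnj13 took the place of the split. Htr2c, the serotonin receptor that the epithelium shares with neurons, differed by 0.12 (adjusted p = 0.78), Cp, ceruloplasmin, by 0.26, Bmp7, a secreted ligand, by 0.28, Ace, the angiotensin-converting enzyme, by 0.18, and Lrp2, an endocytic receptor, by 0.055.

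The third list, named for junction proteins, keratins and transcription factors, also holds others such as Cab39l. At an unadjusted p under 0.05 it had 13 higher and 0 lower of 24 measured, with a median difference of 0.17. In limma 6 of its genes were higher and 0 lower. They were Otx2, Perp, Krt18, Mdfic, Cldn1 and Cab39l. Otx2, the homeodomain transcription factor that choroid plexus development requires, is shown with its own promoter because it is the factor among the 23 with a known core motif, TAATCC or in reverse complement GGATTA. The RefSeq start shown was again chosen among those of the gene whose window holds the motif. The 250 bases before it are chr14:48665110-48665359 on the minus strand, and the capitals mark GGATTA, which begins 211 bases before that start.
Otx2: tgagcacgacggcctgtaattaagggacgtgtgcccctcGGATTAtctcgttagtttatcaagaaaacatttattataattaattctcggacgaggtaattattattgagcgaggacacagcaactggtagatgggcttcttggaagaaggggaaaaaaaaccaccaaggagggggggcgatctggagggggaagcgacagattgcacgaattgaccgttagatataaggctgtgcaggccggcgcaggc

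Otx2 was dim, at 4.36 on U4, 4.36 on U9, 4.79 on S3, 5.00 on S5 and 4.99 on S7, against 3.65 to 4.03 with a median of 3.94. The sleep-deprived choroid-rich arrays were above the undisturbed ones, all 5 were above the choroid-poor arrays, and the difference was 0.75 (SE 0.079, adjusted p = 1.7e-05). Krt18, a keratin of simple epithelia, measured 5.16, 5.25, 5.46, 5.57 and 5.28 on U4, U9, S3, S5 and S7 and 4.44 to 4.93, median 4.79, on the choroid-poor arrays (difference 0.57, SE 0.074, adjusted p = 2.3e-04). Cldn1, a tight junction protein, had 5.61, 5.42, 5.56, 5.44 and 5.48 against 4.88 to 5.31, median 5.07 (difference 0.45, SE 0.069, adjusted p = 0.0018). Neither of these groups overlapped, and for Cldn1 it was U4 that stood highest. Cab39l, a scaffold of the Stk11 kinase, had the smallest of the called differences, 0.28 (SE 0.039, adjusted p = 4.9e-04), with 8.89 to 8.99 on the choroid-rich and 8.58 to 8.72 on the choroid-poor arrays. Perp, a desmosomal membrane protein, differed by 0.58 and Mdfic, a regulator of transcription factors, by 0.51, both with no overlap. Not called were Lmx1a, a transcription factor of the dorsal midline, with 0.21 (adjusted p = 0.71), and Cox8b, a subunit of cytochrome oxidase, with 0.16 (adjusted p = 0.75).

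Prr32, a proline-rich protein, was the 1 called gene on none of the lists. It measured 6.12 on U4, 6.61 on U9, 6.78 on S3, 6.78 on S5 and 6.41 on S7 and 5.61 to 6.12, median 5.97, on the choroid-poor arrays, with U4 above the highest of them by less than 0.01 on unrounded values (difference 0.60, SE 0.090, adjusted p = 0.0014). The motif letters were counted on both strands in all 32851 RefSeq windows of 300 bases, from 250 before to 50 after a start, and in the 22 windows of the 17 called genes that had one. TAATCC was in 7.06% of all windows and in 1 of the 22, that of Otx2 itself. GTTGCC was in 12.5% of all and in 6 of the 22, of Kcne2, Aqp1, Steap1, Otx2 and Prr32. TATAAA was in 13.6% of all and in 3 of the 22, of Kcnj13, Slc4a5 and Otx2. None of these motifs contains another. A match is a run of letters and no evidence of binding.

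Some genes were read by several probe sets on the same arrays. When all 45033 probe sets outside Ttr were tested on their own, 38 (0.0844%) were higher and 0 lower in limma, 52.8% had a positive difference, and 4 of the 38 carry no single gene symbol. Besides the brightest probe sets, which had selected the genes, the 23 genes had 18 others. Of these 7 were called and 18 had a positive difference, and since they read the same transcripts in the same RNA they are no independent test. Clic6 differed by 2.89 on a second, dimmer probe set against 0.89 on its brightest (adjusted p of the difference between probe sets = 1.0e-10 in limma over 16749 pairs). For Ecrg4 a dim probe set gave 0.40 against 1.58 on the brightest (adjusted p = 4.5e-06), and for Sulf1 1 of 3 gave 0.039 against 0.93 (adjusted p = 0.045). Another probe set of Ecrg4 gave 2.06, which did not differ from its brightest in the same test (adjusted p = 0.50). The size of the difference in these 3 genes therefore depended on the probe set. Steap1 was called in this test through its dimmer probe set (0.45, adjusted p = 0.0035) and not through its brightest (0.60, adjusted p = 0.087). Of the 38, 5 belonged to genes other than the 23, named here after their values were seen. They read Cldn2 (1.08), Slc2a12 (0.58), Trpm3 (0.48), Tspo (0.42) and Cd59a (0.39). Cldn2, a claudin that forms cation pores in this epithelium, differed by 0.25 on its brightest probe set, and the difference between the 2 readings did not pass the threshold (adjusted p = 0.29). Slc2a12, a sugar transporter, differed by 0.024 on its brightest probe set (adjusted p = 0.97), and there the 2 readings did differ (adjusted p = 0.0020). It was the fourth of 4 such pairs, beside those of Clic6, Ecrg4 and Sulf1.

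No gene of ependyma was called. Of 57 measured genes of ependyma and motile cilia 0 were higher and 0 lower in limma, 5 were higher and 0 lower at an unadjusted p under 0.05, 35 had a positive difference, and the median was 0.048. The mean log2 signal of the list ran from 5.98 to 6.12 on the choroid-rich and from 5.96 to 6.09 on the choroid-poor arrays, nearly the same range. Foxj1, the master transcription factor of motile cilia, was 6.33 on U4, 6.47 on U9, 6.77 on S3, 6.54 on S5 and 6.54 on S7 against 6.10 to 6.60, median 6.46 (difference 0.11, SE 0.073, adjusted p = 0.79). The smallest adjusted p of the list was that of Mlf1, with a difference of 0.27 (SE 0.083, adjusted p = 0.50), followed by Pifo with 0.17, Efhb with 0.17, Rsph1 with 0.14 and Daw1 with 0.12. Mlf1 was highest on S3 at 5.07, and U4 and U9 at 4.43 and 4.36 lay within the choroid-poor range of 4.21 to 4.58.

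**Figure D2:**
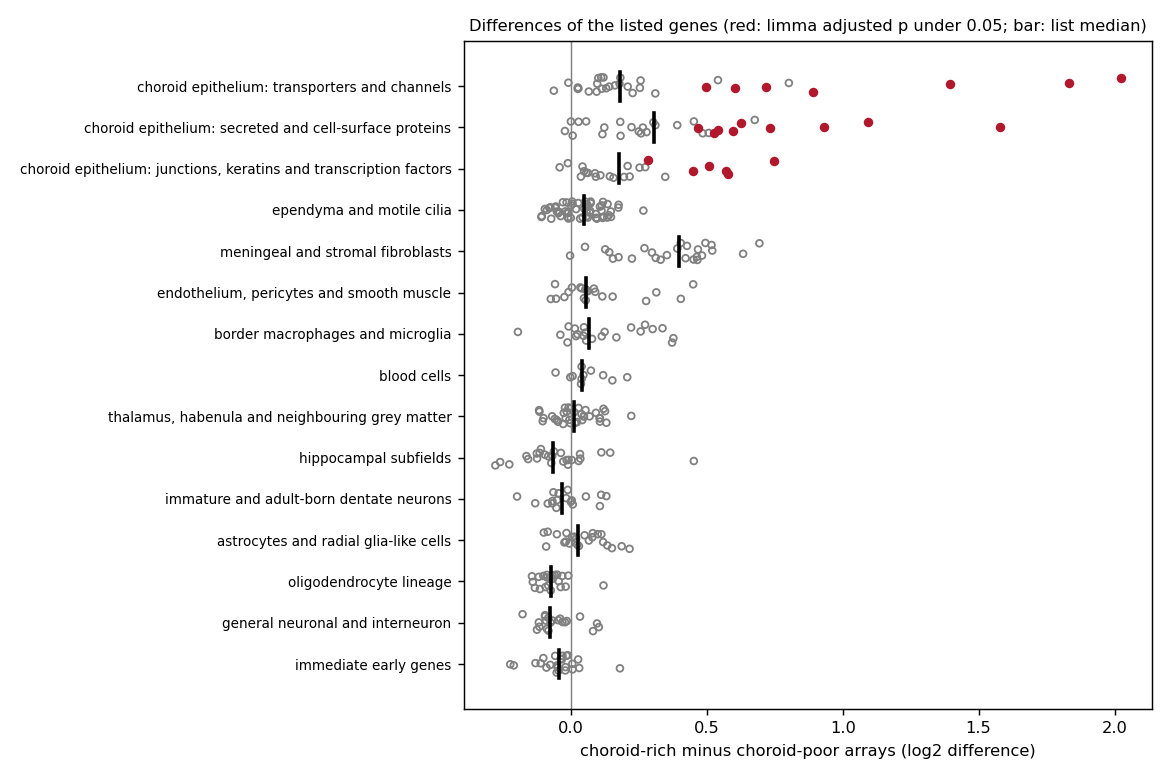
Difference of each listed gene between choroid-rich and choroid-poor arrays (horizontal axis, log2), by gene list (rows), with filled red points for genes called in limma at an adjusted p under 0.05, open points for the rest and a black bar at each list's median. The called genes among those listed are all on the 3 choroid epithelium lists, and Prr32, on no list, is not shown. The fibroblast list lies to the right with a median of 0.40 and no call, and the ependyma list is centred at 0.048.

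Meningeal and stromal fibroblasts lie in the core of the choroid plexus and also in the meninges around the hippocampus. Their list had no called marker in the main fit, and its mean overlapped between the groups. Of 26 measured genes 0 were higher and 0 lower in limma, but 19 were higher and 0 lower at an unadjusted p under 0.05, 25 had a positive difference and the median was 0.40. The list mean was 7.30 on U4, 7.78 on U9, 7.23 on S3, 7.38 on S5 and 7.27 on S7, and 6.61 to 7.68 on the choroid-poor arrays. The choroid-poor arrays U6 with 7.68 and U8 with 7.60 exceeded every choroid-rich array except U9. Lum, a proteoglycan of collagen fibrils, differed by 0.45 (SE 0.12, adjusted p = 0.28), Col1a2, a chain of fibrillar collagen, by 0.46 (SE 0.15, adjusted p = 0.54), and Slc47a1, a cation exporter, by 0.69 (SE 0.24, adjusted p = 0.61). Mgp, a matrix protein, differed by 0.48, Serping1, a complement inhibitor, by 0.47 and Dcn, a collagen-binding proteoglycan, by 0.31. Summed on the linear scale, the list reached 6859 to 9327 on the choroid-rich and 4740 to 9138 on the choroid-poor arrays. With the mean of this list added to the fit as a covariate, a step chosen after the data were seen, 17 genes were called and all 17 were among the 23. Other settings did call a gene of this list. Lum was called with continuous Ttr and with the mean of Kl, Sostdc1, Clic6 and Kcnj13 in place of the split. Gjb2 was called with the replicate number as a block.

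**Figure D3:**
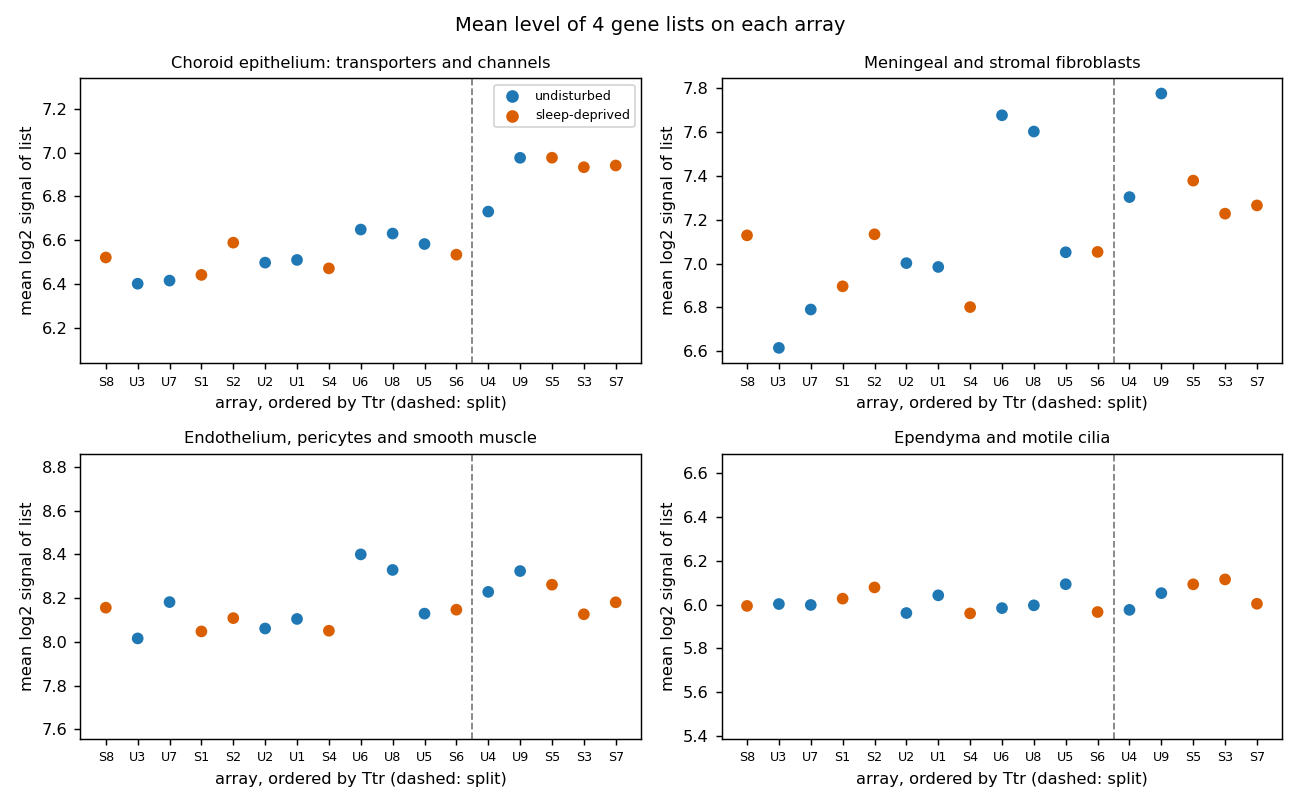
Mean log2 signal of 4 gene lists (vertical axes) on each of the 17 arrays, ordered by Ttr from left to right, blue for undisturbed and orange for sleep-deprived mice, with the dashed line between choroid-poor and choroid-rich arrays; each vertical axis starts above 0. The transporter list steps up at the line, the fibroblast and vascular lists are high on U6, U8 and U9, and the cilia list stays between 5.96 and 6.12.

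Within the 12 choroid-poor arrays the amount of Ttr still varied, and the other genes followed it unevenly. After removal of the sleep group means, the correlation of the called genes with Ttr ran from -0.41 for Kl to 0.73 for Clic6. It was 0.64 for Kcnj13 and 0.60 for Ecrg4. For means of several genes the sleep group means were not removed, so their values are not on the same footing. The mean of Kl, Sostdc1, Clic6 and Kcnj13 had r = 0.70 with Ttr, the fibroblast mean had r = 0.46 and the cilia mean r = 0.075. The fibroblast mean was closer to the 4-marker mean (r = 0.79) and to the mean of endothelium, pericytes and smooth muscle (r = 0.89). All points are arrays that share their RNA across genes, the Ttr values are those that chose the groups, and the correlations are descriptions over 12 arrays that support no result above. With the sleep group means removed, the 10 genes with the highest correlation with Ttr there were Gm5084 (0.93), Notum (0.89), Npff (0.88), Lig3 (0.87), A230070E04Rik (0.85), Gm1673 (0.83), Dmbx1 (0.82), Slc5a7 (0.82), Fsip1 (0.81) and 1700018L02Rik (0.81). None of the 23 called genes was among them.

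Vessel, immune and blood markers were tested as other contents of a dissection. Of 22 genes of endothelium, pericytes and smooth muscle 0 were called, 4 were higher and 0 lower at an unadjusted p under 0.05, and the median difference was 0.056. The 4 were Acta2 with 0.45 (SE 0.19, adjusted p = 0.71), Tagln with 0.40, Myh11 with 0.31 and Vwf with 0.28. Plvap, which marks leaky capillaries such as those of the choroid plexus, was 7.35 to 7.73 on choroid-rich and 7.23 to 7.87 on choroid-poor arrays (difference -0.0096, adjusted p = 0.99). Of 22 genes of border macrophages and microglia 0 were called, 8 were higher and 1 lower at an unadjusted p under 0.05, with a median of 0.066. The 8 were led by F13a1 of border macrophages with 0.38 (SE 0.10, adjusted p = 0.32) and H2-Eb1, an antigen-presenting molecule, with 0.30 (adjusted p = 0.40). Of 11 blood cell genes 0 were called, 1 was higher at an unadjusted p under 0.05 and the median was 0.038. The 1 was Alas2, with 0.21 (SE 0.081, adjusted p = 0.67). Hba-a1, a haemoglobin chain, differed by -0.058. Its probe set was dim, at 4.02 to 4.60 on choroid-rich and 4.20 to 4.47 on choroid-poor arrays, and says little of blood content. The summed signal of each of these 3 lists overlapped between the groups: 10761 to 12310 against 10157 to 13223 for vessels, 7715 to 8642 against 7304 to 8142 for macrophages and microglia, and 1261 to 1392 against 1201 to 1318 for blood.

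Neural markers shifted little, and no list of them held a called gene in the main fit. Positive differences were fewer than the 56.5% of all genes in several lists. They were seen in 7 of 26 hippocampal subfield, 4 of 21 general neuronal, 5 of 25 immediate early and 6 of 18 immature neuron genes. Thalamus and neighbouring grey matter had 18 of 35 positive and astrocytes 16 of 24. Hippocampal subfield genes had a median of -0.067 over 26 genes, with 1 higher and 3 lower at an unadjusted p under 0.05. The 3 lower were markers of the dentate gyrus: Prox1 was 7.01 to 7.43 on choroid-rich and 7.09 to 7.73 on choroid-poor arrays (difference -0.28, SE 0.082, adjusted p = 0.43), Dsp, a desmosomal protein, differed by -0.26 and Pdzd2, a PDZ domain protein, by -0.23. The 1 higher was Coch, an extracellular matrix protein, at 0.45 (SE 0.093, adjusted p = 0.058). Its choroid-poor values overlapped, with U8 at 7.10, U1 at 6.98 and U6 at 6.96 inside the choroid-rich range of 6.91 to 7.44. Coch was called with array weights and with the replicate number as a block. It was also called with the mean of Kl, Sostdc1, Clic6 and Kcnj13 in place of the split. Oligodendrocyte genes had a median of -0.075 over 23 genes, 1 of them positive, with 0 at an unadjusted p under 0.05. General neuronal genes had a median of -0.076 over 21 genes, with 0 higher and 1 lower at an unadjusted p under 0.05, and astrocyte genes 0.025 over 24, with 3 higher and 0 lower. Markers of thalamus, habenula and neighbouring grey matter, the other tissue that a dissection might include, had a median of 0.011 over 35 genes with 1 higher at an unadjusted p under 0.05. Tcf7l2 and Prkcd, both strong in thalamus, differed by 0.12 and -0.027. Immature dentate neurons had a median of -0.032 over 18 genes, with 0 higher and 1 lower at an unadjusted p under 0.05. Immediate early genes, which neuronal activity induces, had a median of -0.047 over 25 genes, with 1 higher and 1 lower at an unadjusted p under 0.05, and with Fos at 0.0040 and Arc at -0.21 (adjusted p = 0.76).

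The difference between choroid-rich and choroid-poor arrays was also taken within each sleep group. In the 8 sleep-deprived mice, 3 choroid-rich and 5 choroid-poor, 24 genes were higher (0.132%) and 0 lower, and 19 of the 24 were among the 23. In the 9 undisturbed mice, 2 choroid-rich and 7 choroid-poor, 3 genes were higher (0.0165%) and 0 lower: Kcne2, Ecrg4 and Sostdc1. Of the 24 genes called in sleep-deprived mice 21 had a positive difference in the undisturbed mice, where 56% of all genes had one. For 16 of the 24 both undisturbed choroid-rich arrays lay above all 7 undisturbed choroid-poor ones, a separation found in 2.07% of all genes. The 23 genes had been called for a positive difference on these same arrays, so their sign within each sleep group is no test. All 23 genes were positive in both groups, and 22 had the larger difference in sleep-deprived mice. The share of all genes with a larger difference in sleep-deprived mice was not counted. Folr1 differed by 1.80 there and by 0.90 in undisturbed mice, and Otx2 by 0.96 and 0.49. The interaction of choroid and sleep group was significant for 0 genes in limma, with 689 (3.79%) at an unadjusted p under 0.05. Of the 23 genes 7 had an unadjusted p under 0.05 for it, Otx2 with 9.7e-04, Folr1 with 0.0011 and Ecrg4 with 0.0019 being the lowest, and the smallest adjusted p was 0.999. Ttr itself was 13.8 and 14.1 on the undisturbed and 14.2 to 14.3 on the sleep-deprived choroid-rich arrays. The part of that gap in the larger differences was not tested.

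**Figure D4:**
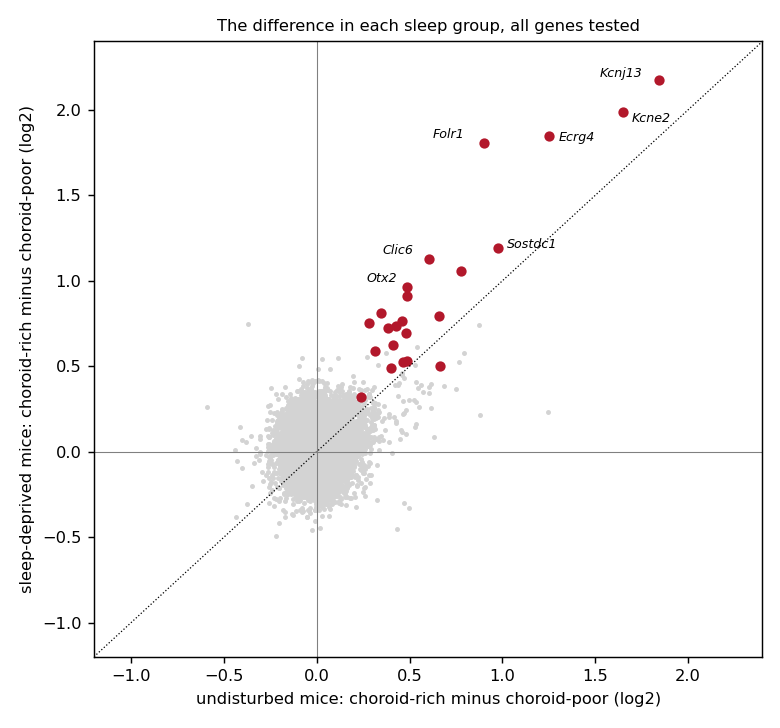
Choroid-rich minus choroid-poor difference (log2) in undisturbed mice (horizontal axis, 2 against 7 arrays) and in sleep-deprived mice (vertical axis, 3 against 5 arrays), with 1 point per gene, red for the 23 called genes, grey for all others, and the dotted line at equality. The red points are positive on both axes and 22 of 23 lie above the line. They were called on the same arrays for a positive difference, so their sign is no test.

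The choroid term also entered the comparison of sleep-deprived with undisturbed mice. With it 596 genes were called in limma (3.28%), 187 higher (1.03%) and 409 lower (2.25%) in sleep-deprived mice, and without it 723 (3.97%). The fits shared 577 calls, so that the term added 19 and removed 146. Between the fits the sleep difference of all genes moved by a median of only 0.0071 in absolute value. Without U4 the count with the choroid term was 331 and without U9 365. None of the 23 genes was called for sleep in either fit, and the smallest adjusted p among them was 0.085 with the term, for Otx2, and 0.25 without it. Their median sleep difference was 0.18 without the choroid term and 0.085 with it, and for 19 of 23 it moved nearer to 0. For Kcnj13 it went from 0.44 to 0.13, for Kcne2 from 0.49 to 0.21 and for Folr1 from 0.51 to 0.30. The share of choroid-rich arrays was 3 of 8 in the sleep-deprived and 2 of 9 in the undisturbed group. Those shares and a gene's choroid difference together fix how far its sleep difference moves between the fits. The 23 genes had been called for a positive choroid difference, so each had to move downward. The move is a description and no test.

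**Figure D5:**
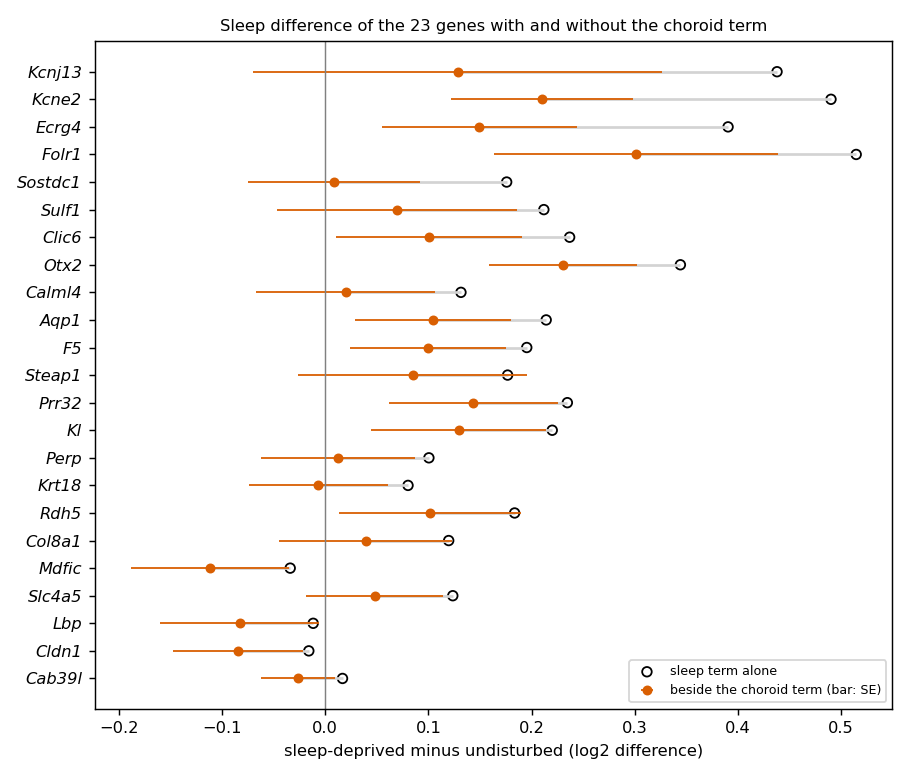
Sleep-deprived minus undisturbed difference (log2, horizontal axis) of the 23 genes, as open circles from the fit with the sleep term alone and as orange points with SE bars from the fit that also has the choroid term. The median falls from 0.18 to 0.085, and Mdfic, Lbp, Cldn1 and Cab39l are the genes that end farther from 0. Each gene's downward move was fixed by its positive choroid difference and the group counts.

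Among all genes, the call for sleep changed with the choroid term for the following, chosen as the 6 with the largest change in difference. Sgk1, a kinase induced by glucocorticoids, was 10.4 on average over the arrays, and its sleep difference went from 0.52 (adjusted p = 0.054) to 0.56 (SE 0.15, adjusted p = 0.038). Gm32031, Tmem86a and Cabcoco1 were likewise called only with the term, at -0.22, -0.21 and -0.22. Slc7a8, an amino acid transporter, and Stx3, a membrane fusion protein, were called only without it, at -0.27 and -0.28, and had -0.24 (adjusted p = 0.051) and -0.25 (adjusted p = 0.052) with it. In each of the 6 the difference moved by less than 0.05 on the log2 scale.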

How the data were processed

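RNA from the dissected hippocampus of 17 mice was measured on 17 Affymetrix arrays, 1 animal per array. The authors deposited log2 signals, 1 per probe set and array, that were made with RMA and the affy package, per the submitters' processing notes. Their range, 2.90 to 14.8, gave the log base. Step order, filters and versions were not given in the sources used here. That method brings arrays to a common distribution, which hides a shift common to most genes, and differences of dim probe sets can be compressed. Of 45101 probe sets 64 were controls, 34945 carried 1 gene symbol, 932 several and 9160 none. Symbols came from the platform annotation, and a RefSeq table matched 34741 of them. Each gene was read through the probe set with the highest mean.

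The groups came from Ttr as stated at the start, and Ttr was left out of all tests. Genes were fitted with lmFit and eBayes in limma 3.58.1 under R 4.3.3, with choroid and sleep group as terms, and p-values were adjusted over 18192 genes with a threshold of 0.05. The steps were tested on simulated data. Members, the 15 gene lists (395 of 425 entries measured) and the motifs were chosen with earlier results of these data known. Named genes were the markers, the 20 largest called increases (no decrease was called), the 5 members of each list with the smallest adjusted p, genes fixed by name, the 10 most like Ttr within choroid-poor arrays and the 6 whose sleep call changed most. Lbp and H3c7 are outside it and were picked with their values known, as were others where the text says so. Alternatives were other rules for several probe sets, quantile normalization, filters on mean signal, array weights, median centring, trend and robust options, an RNA quality covariate, no sleep covariate, continuous markers, each sleep group alone, a replicate block, a stricter threshold, each array left out, and, chosen after seeing the data, every probe set on its own and a fibroblast covariate. No coordinates other than those of the promoter windows were used.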

Additional observations from a re-analysis of the deposited data

Results flagged for a closer look

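Within groups of 4 to 10 arrays, the called genes were searched for an array that stood apart from the others by Dixon's criterion. Of 69 groups 4 held such an array, where chance alone gives about 1 in 20. Cab39l measured 8.99 on S5 and 8.89 to 8.92 on the other 4 choroid-rich arrays. Clic6 measured 7.06 on U5, the undisturbed choroid-poor array with the most Ttr, and 6.64 to 6.81 on the other 6 of its group. Folr1 measured 5.68 on U3 and 5.84 to 5.94 on the other undisturbed choroid-poor arrays. Prr32 measured 5.65 on S4 and 5.98 to 6.12 on the other sleep-deprived choroid-poor arrays.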

How the results depend on the processing

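Over the alternatives, leave-one-out fits included, the 23 called genes gave 750 differences, of which 0 were negative and 75 were no longer called. With filters on mean signal of at least 6 and at least 8 the count of higher genes was 12 and 1, the 1 being Cab39l, with dimmer genes left out of the test. It was 45 with array weights, 52 with the mean of Kl, Sostdc1, Clic6 and Kcnj13 in place of the split (these 4 among them, whose calls the covariate fixes, and 48 others), 3 in undisturbed arrays alone and 38 over single probe sets. With continuous Ttr in place of the split it was 18, of which 16 were among the 23 and 1, Lum, was on the fibroblast list. Leaving out 1 array gave 20 to 37. Lower genes numbered 1 after quantile normalization (H3c7, -0.28, adjusted p = 0.024 in limma, against 0.15) and 1 with the marker mean (Pdzd2, -0.23, adjusted p = 0.042, against 0.43), and 0 in the other settings. The cause was not tested. Sleep calls beside the choroid term ran from 331 to 674 when 1 array was left out and numbered 176 at an adjusted p under 0.01. Same-numbered mice of the sleep groups did not all deviate together (r from -0.0086 to 0.31 over 8 numbers, 1 of 8 closest to its own number). These 8 values are too few to tell whether the numbers pair the animals. With the replicate block 24 genes were higher, 16 of them among the 23, 0 were lower, and 617 were called for sleep. Gjb2 of the fibroblast list and F13a1 of border macrophages were among these 24. Kcne2, Otx2, Aqp1, F5 and Slc4a5 are among the dim genes that both filters leave out.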

Other observations

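Complete separation of the groups without a call was seen in 6 genes, named after their values were seen. They were Cpa3, a mast cell protease, with a difference of 0.32 (adjusted p = 0.15 in limma), Msx1, a homeodomain factor on the choroid epithelium lists, with 0.27 (adjusted p = 0.15), Emb with 0.25, Steap2, a relative of Steap1, with 0.18, Lrp2bp with 0.18 and Tmprss11a with 0.16.

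Of the 24 genes called in sleep-deprived mice alone, 5 were not among the 23 and are named here after their values were seen. Slc13a4 and Pcolce, an enhancer of collagen processing, were also positive in undisturbed mice, with 0.74 and 0.87 for Slc13a4 and 0.58 and 0.79 for Pcolce in sleep-deprived and undisturbed mice. Eps8l1, Ccr1l1 and Mep1a were not: Eps8l1 had 0.75 and -0.37, Ccr1l1 0.55 and -0.077, and Mep1a 0.50 and -0.096. No interaction was called for any gene.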
